A study of Homo sapiens with 12 samples.

Results

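The genes described here are named after the heterogeneous nuclear ribonucleoproteins (hnRNPs) and the serine/arginine-rich splicing factors (SRSFs). They are seen here as RNA targets of the splicing regulator QKI. They were taken as every crosslink cluster of the endogenous QKI libraries whose annotated gene name begins with HNRNP or SRSF, leaving out HNRNPK and pseudogenes. This gave 1330 of 616191 clusters, from 22 hnRNP and 12 SRSF genes. The 22 hnRNP names include HNRNPU-AS1, named as an antisense transcript, and HNRNPUL2-BSCL2, a joined name of HNRNPUL2 and BSCL2. Clusters of a gene that overlapped by at least 1 base between libraries were joined into 841 loci, 607 hnRNP and 234 SRSF. The choice of members used names only, no measured value. Of the clusters, 1284 had 1 gene name and 46 had several.

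QKI is an RNA-binding protein of the STAR family that recognises a short adenine- and uracil-rich element and controls alternative splicing and messenger stability. hnRNPs coat nascent transcripts and often block the use of a splice site, whereas SR proteins bind exons and usually favour their inclusion. Many genes of both families are known to control their own messengers, through alternatively spliced exons or introns in the 3′ untranslated region (3′ UTR) that lead to decay. The clusters below show where another splicing regulator was found on these transcripts.

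The study used eCLIP, in which ultraviolet light fixes a protein to its RNA, the complex is immunoprecipitated, and the recovered fragments are compared with a size-matched input. Of 12 libraries, 6 were immunoprecipitations and 6 their inputs, with 2 immunoprecipitation libraries per group. The groups were myc-QKI-5 with the substitutions K120A and R124A (the mutant), wild type myc-QKI-5 (the tagged wild type), and unmodified cells (endogenous QKI). All were HEK293T per the protocols, a human embryonic kidney line carrying the SV40 large T antigen, named HEK293xT in the title. The tagged proteins came from transient transfection of 10 µg plasmid, given 72 hours before crosslinking, so these cells still had their own QKI. The light was of 254 nm, at a dose of 400 mJ/cm2. Tagged QKI was pulled down with an antibody to MYC and endogenous QKI with an antibody to QKI itself. Antibody and transfection thus changed together between those groups, and their effects cannot be told apart. The series' design text instead names human embryonic stem cells during cardiomyocyte differentiation. In the endogenous libraries POU5F1, NANOG, LIN28A, TDGF1, SOX2, TNNT2, MYH6 and MYH7 carried 0 clusters, while DNMT3B carried 23 and 10, RYR2 66 and 29, ACTN2 32 and 18, and NKX2-5 0 and 1. Of 6 kidney line markers, 4 and 2 carried a cluster, among them PAX2 with 6 and 3. PAX8 and LHX1 had none. A cluster needs transcription but does not measure it.

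The libraries held 231814 and 272728 clusters in the mutant, 226962 and 273269 in the tagged wild type, and 384347 and 231844 for endogenous QKI. For each cluster the authors give a log2 fold over input and its −log10 p. A cluster is called enriched here when both were at least 3. No cluster at or below input appears in the lists for the tagged proteins, so that a locus not listed was either without a cluster or not above input, while the endogenous lists also keep clusters at or below input. Sequencing depth is unknown here. Nothing in the labels tells whether replicate libraries were separate cultures, and p-values then measure only their spread, which may be technical. No RNA level was used here, so more RNA and more binding cannot be told apart in a count of clusters.

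Endogenous QKI was enriched on a small number of hnRNP transcripts and on few SRSF transcripts. Among hnRNP clusters, 27 of 539 and 24 of 443 were enriched in the 2 libraries, or 5.01% and 5.42%, against 4.22% and 5.39% of all clusters. Among SRSF clusters, 3 of 191 and 2 of 157 were enriched, or 1.57% and 1.27%. The hnRNP share was thus near that of all clusters and the SRSF share below it in both libraries. The hnRNP share rests in part on HNRNPU-AS1, whose enriched clusters were annotated as noncoding. It gave 6 and 8 of the enriched hnRNP clusters from 46 and 42 clusters in all, and the hnRNP share would be lower without it. Loci enriched in both libraries numbered 12 of 607 for hnRNP genes and 1 of 234 for SRSF genes, where 1.63% of all merged loci were. Among loci with a cluster in both libraries these were 12 of 236 and 1 of 87, against 7.74% of all such loci. By gene, 9 of 22 hnRNP and 1 of 12 SRSF genes had such a locus, against 20.4% of 16424 gene names. The 20.4% uses only clusters with 1 gene name, while the member counts also use those with several. The gene shares are not adjusted for the number of clusters per gene.

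The enriched hnRNP clusters were concentrated in a pair of transcripts, HNRNPA2B1 and HNRNPU-AS1, which held 12 of the 27 and 14 of the 24. HNRNPA1 and HNRNPD each had 4 and 1, HNRNPA1L2 2 and 1, and HNRNPH1 1 and 2. HNRNPDL, HNRNPF, HNRNPH2 and HNRNPR each had 1 and 1, and HNRNPU 0 and 1. The HNRNPF clusters lay at different intron loci, chr10:43894506-43894630 in library 1 and chr10:43900532-43900666 in library 2. No HNRNPF locus was thus enriched in both libraries. On the SRSF side SRSF12 had 1 and 1, SRSF11 and SRSF5 1 and 0, and SRSF4 0 and 1. The other 19 genes, 11 hnRNP and 8 SRSF, had no enriched endogenous cluster.

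**Figure D1:**
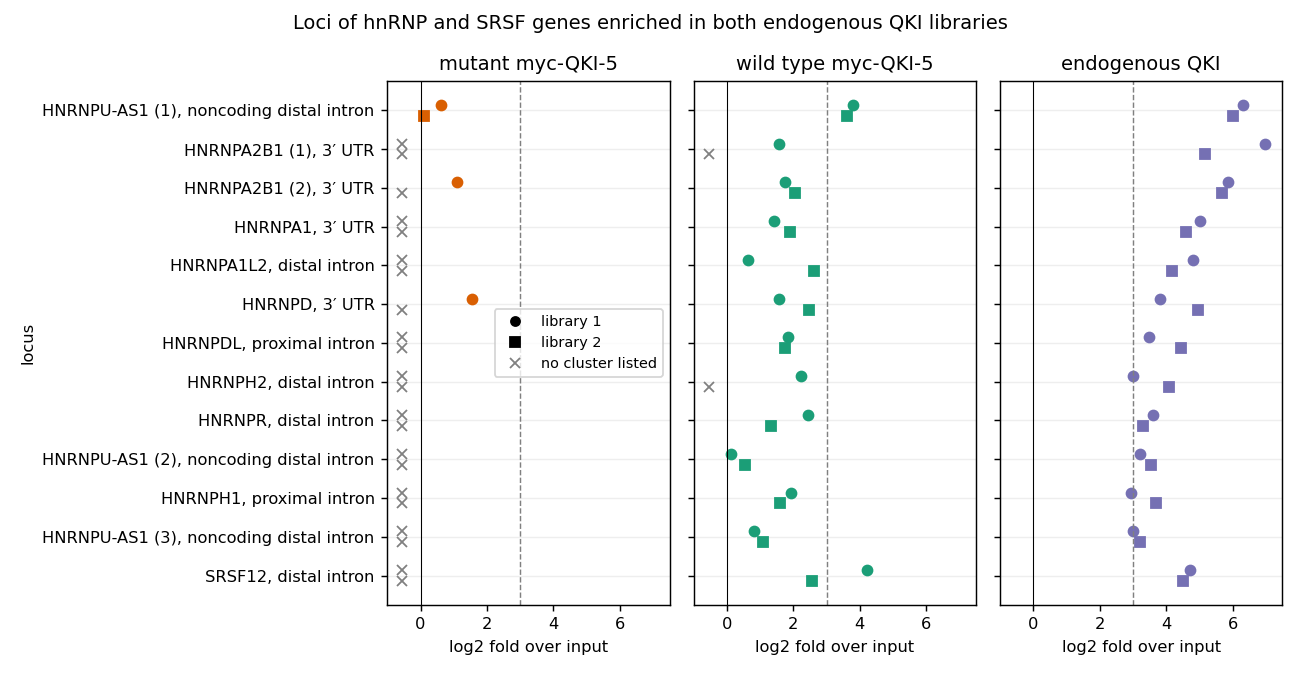
Log2 fold over input (horizontal) at the 13 loci enriched in both endogenous libraries, by locus (rows, numbered by fold where a gene has several), in the mutant, tagged wild type and endogenous libraries. Circles are library 1, squares library 2, crosses mean that no cluster was listed, and the dashed line marks 3. The mutant was listed at few of the loci and lay below 2 wherever it was.

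The highest single cluster of the families, in endogenous library 1, lay in the 3′ UTR of HNRNPA2B1, which encodes a major hnRNP core protein that binds purine-rich RNA (hg19 chr7:26230845-26231115, minus strand). At the first of 2 adjoining loci, chr7:26230845-26230910, the mutant had no listed cluster, the tagged wild type had a log2 fold of 1.58 in library 1 and none listed in library 2, and endogenous QKI had 6.99 and 5.17. At the second, chr7:26230911-26231115, the mutant had 1.11 in library 1 only, the tagged wild type 1.76 and 2.04, and endogenous QKI 5.87 and 5.67. The single tagged wild type cluster of library 1 at the first locus also reaches into the second, so these loci share reads. Both endogenous libraries split the stretch into 6 enriched clusters, and the −log10 p reached its cap of 400 in each. The 6.99 came from a cluster of 17 bases, and the matching cluster of 18 bases in endogenous library 2 had 5.17. Over the upstream bases the endogenous libraries lay closer together, and the fold was lower at both ends of the stretch.

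HNRNPU-AS1 had the most loci enriched in both endogenous libraries, 3 of its 27, and the locus with the highest mean of the 2 libraries, 6.17 against 6.08 and 5.77 at the HNRNPA2B1 loci. Its name means an antisense transcript of HNRNPU, the nuclear scaffold protein also called SAF-A, but the files place both names on the minus strand, HNRNPU at chr1:245014495-245027259 and HNRNPU-AS1 at chr1:245004066-245014243. The RefSeq table used here lists HNRNPU-AS1 as a synonym of HNRNPU, and reads of HNRNPU's own strand running past its annotated end cannot be told apart from reads of a separate RNA. At the main locus, chr1:245013407-245013799, in a stretch annotated as distal intron of a noncoding gene, the mutant had log2 folds of 0.61 and 0.11, the tagged wild type 3.78 and 3.62, and endogenous QKI 6.32 and 6.01. This was the only locus of either family listed in all 6 libraries and enriched in both tagged wild type and both endogenous libraries, and the groups did not overlap. A pair of adjoining downstream loci, chr1:245013210-245013275 and chr1:245013276-245013406, were also enriched in both endogenous libraries. The mutant was not listed at either. At the first the tagged wild type had 0.82 and 1.08 and endogenous QKI 3.0 and 3.20, and at the second the tagged wild type had 0.11 and 0.55 and endogenous QKI 3.22 and 3.54. A further pair of loci, at chr1:245013107-245013209 and chr1:245013800-245014054, passed in endogenous library 2 only.

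**Figure D2:**
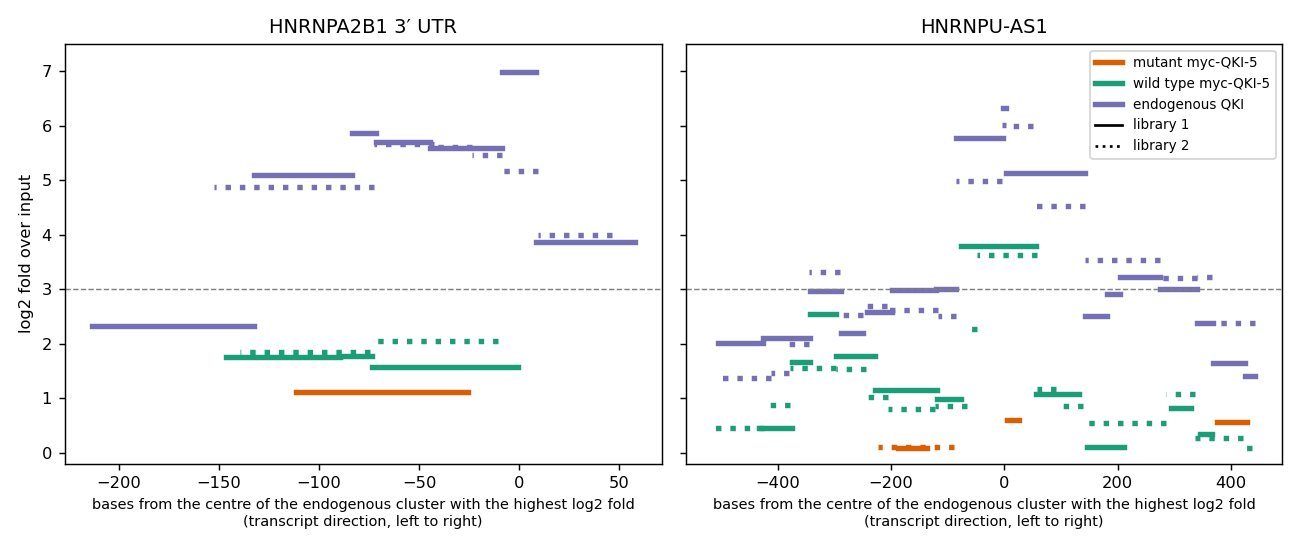
Clusters along the HNRNPA2B1 3′ UTR (left) and the HNRNPU-AS1 stretch (right): bases from the centre of the endogenous cluster with the highest log2 fold, in transcript direction, against log2 fold over input. Each segment is 1 cluster of the mutant, tagged wild type or endogenous libraries, solid for library 1 and dotted for library 2, with a dashed line at 3. Tagged wild type clusters crossed that line at HNRNPU-AS1 and stayed at or below 2.04 at HNRNPA2B1.

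HNRNPA1, a splicing repressor that favours distal splice sites, was enriched in its 3′ UTR at chr12:54678131-54678323 (plus strand). There the mutant was not listed, the tagged wild type had log2 folds of 1.41 and 1.91, and endogenous QKI 5.02 and 4.60. A second 3′ UTR locus further downstream, chr12:54679466-54679523, behaved differently. Its most significant cluster had 3.32 and 2.00 in the tagged wild type and 3.05 in endogenous library 1 only. The 2.00 came from a cluster at chr12:54679376-54679466, which meets the locus only at its first base. Each tagged wild type library held an enriched cluster inside the locus, of 25 bases at 3.32 in library 1 and of 16 bases at 3.39 in library 2. HNRNPA1L2, an HNRNPA1-like gene on chromosome 13, had a locus at chr13:53215499-53215688 annotated as distal intron, with no mutant cluster, 0.63 and 2.61 in the tagged wild type and 4.81 and 4.18 for endogenous QKI. Reads may be shared where its sequence copies HNRNPA1. Whether that reaches this intron locus was not tested, so the values there are uncertain.

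HNRNPD, also known as AUF1, which binds adenine- and uracil-rich elements, and its paralog HNRNPDL lie near each other on chromosome 4. In the HNRNPD 3′ UTR, chr4:83276094-83276374, the mutant had 1.55 in library 1 only, the tagged wild type 1.57 and 2.48, and endogenous QKI 3.82 and 4.96. Of the 4 enriched clusters there in endogenous library 1, 3 were annotated at a 3′ splice site and 1 in the 3′ UTR. In HNRNPDL, at chr4:83347366-83347573 in the intron close to an exon, the mutant was not listed, the tagged wild type had 1.85 and 1.76, and endogenous QKI 3.49 and 4.45. At each of these loci every endogenous value exceeded every tagged value.

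The remaining hnRNP loci enriched in both endogenous libraries were intronic. HNRNPR, a relative of SYNCRIP, had at chr1:23646853-23647087 no mutant cluster, 2.44 and 1.32 in the tagged wild type, and 3.61 and 3.30 for endogenous QKI. HNRNPH1, which binds runs of guanine, had at chr5:179044310-179044527 no mutant cluster, 1.94 and 1.59 in the tagged wild type, and 2.94 and 3.70 for endogenous QKI. The 2.94 belongs to the most significant cluster, and library 1 passed through a cluster of 20 bases at 3.51. HNRNPH2, its X-linked paralog, had at chrX:100665563-100665710 no mutant cluster, 2.22 in tagged wild type library 1 only, and 3.01 and 4.09 for endogenous QKI. HNRNPH2 overlaps a readthrough transcript with RPL36A, from which its reads cannot be told apart.

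SRSF12, a small SR protein known to oppose the splicing activity of other SR proteins in vitro, was the only SRSF gene with a locus enriched in both endogenous libraries. In its distal intron, at chr6:89818444-89818576 (minus strand), the mutant was not listed, the tagged wild type had 4.22 and 2.56, and endogenous QKI 4.72 and 4.52. The −log10 p was 4.98 and 3.28 in the tagged wild type and 8.49 and 6.17 for endogenous QKI, far below those of HNRNPA2B1. Library 1 of the tagged wild type was enriched and library 2 was not. SRSF4, SRSF11 and SRSF5 passed in 1 endogenous library. SRSF4, at chr1:29486143-29486250, had 2.68 and 4.15, SRSF11, at chr1:70714968-70715058, 3.61 and 1.56, and SRSF5, at chr14:70236911-70237165, 3.15 and 2.89. SRSF5 missed only in fold in library 2, where its −log10 p was 17.1, whereas SRSF11 missed in both measures.

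The gene with the most clusters of either family had no enriched one. HNRNPC, which binds uridine tracts and packages nascent RNA, carried 95 and 73 endogenous clusters at 107 loci, with a median log2 fold of −0.52 and 0.39 and a highest of 2.72 and 3.37. Of its 52 loci with a cluster in both libraries, 23 were above input in both and 20 at or below input in both. Among SRSF genes SRSF11 had the most clusters, 52 and 40, with 1 and 0 enriched. Of the SRSF genes with none enriched the most were in SRSF10, a repressor when dephosphorylated, with 14 and 15 clusters and highest folds of 1.87 and 2.08. SRSF2, which activates exons, and HNRNPA0 had no endogenous cluster above input in either library. Their highest values were −0.74 and −0.22 for SRSF2, and −0.13 and −0.44 for HNRNPA0.

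The fold over input of endogenous QKI differed by position within the transcript. Clusters in exons of coding genes made up 46.8% and 39.3% of hnRNP clusters and 34% and 33.8% of SRSF clusters, against 10.3% and 10.9% of all clusters. In coding exons, 1 of 116 and 2 of 83 hnRNP clusters were above input, with median log2 folds of −1.41 and −1.31. Over all genes 16.1% and 34.2% of coding-exon clusters were above input, with medians of −1.16 and −0.44. In SRSF coding exons 1 of 12 and 0 of 11 clusters were above input. Introns and splice sites of hnRNP genes had medians of 0.30 and 0.87, against 0.26 and 1.15 over all genes. SRSF introns and splice sites had 0.14 and 0.77. Of loci with a cluster in both libraries, 97 of 236 hnRNP loci (41.1%) and 35 of 87 SRSF loci (40.2%) were at or below input in both, against 7.03% of all loci. These comparisons with all genes are descriptions, since clusters of 1 gene share their transcript.

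**Figure D3:**
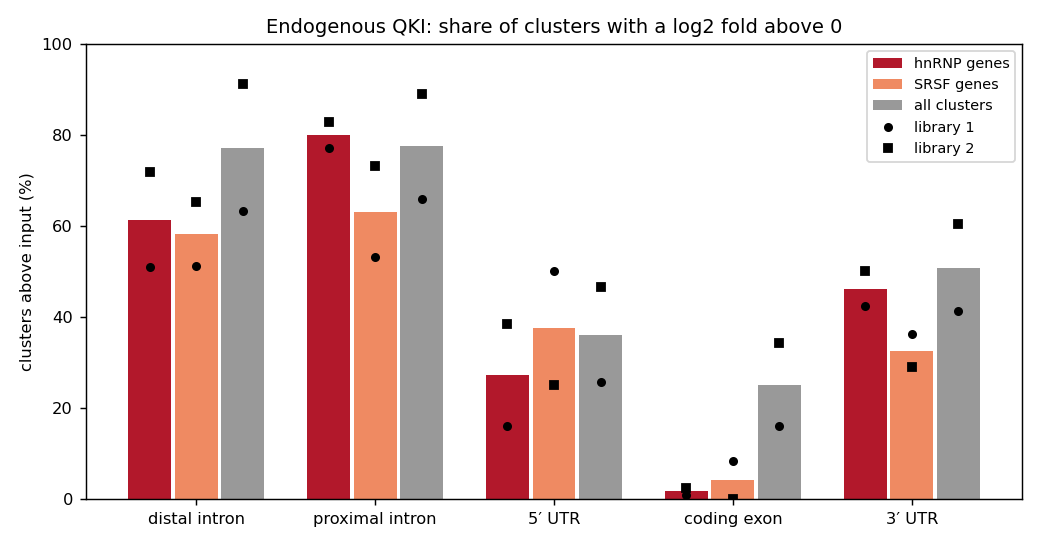
Share of endogenous QKI clusters with a log2 fold above 0 (percent), by annotated class, for hnRNP genes, SRSF genes and all clusters. Bars are means of the 2 libraries, circles library 1 and squares library 2. Coding-exon clusters of hnRNP genes were above input in 0.862% and 2.41%, against 16.1% and 34.2% of all such clusters.

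With endogenous QKI, enriched 3′ UTR clusters were found on hnRNP messengers and on no SRSF messenger. Among hnRNP 3′ UTR clusters, 11 of 111 (9.91%) and 8 of 78 (10.3%) were enriched in the 2 libraries, against 3.34% and 3.91% of all 3′ UTR clusters. All of them lay in HNRNPA2B1, HNRNPA1 and HNRNPD, of which HNRNPA2B1 gave 6 in each library. Among SRSF 3′ UTR clusters 0 of 47 and 0 of 38 were enriched. Clusters of 1 gene are not independent, so the counts describe these 3 genes and not the family.

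The mutant had no enriched cluster at any member locus of the endogenous libraries. Tagged clusters elsewhere in these genes were not counted. At hnRNP loci, 0 of 146 and 0 of 164 mutant clusters were enriched, and 4 of 155 and 5 of 182 tagged wild type clusters. At SRSF loci, 0 of 61 and 0 of 38 mutant clusters were, and 1 of 73 and 3 of 62 tagged wild type clusters. Over all clusters lying at an endogenous cluster, 0.136% and 0.452% were enriched in the mutant and 5.02% and 4.98% in the tagged wild type. The mutant's 0 at member loci is thus near its share over all such clusters. The difference, taken as tagged wild type minus mutant, was 4.5 clusters for hnRNP genes (means 0 and 4.5 ± 0.71, SD, n = 2 each) and 2 for SRSF genes (0 and 2 ± 1.41). With 2 libraries against 2, the exact two-sided permutation test cannot go below p = 0.33, which both comparisons gave. The SRSF count rests on tagged wild type library 2, without which it was 1.

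At the 12 hnRNP loci enriched in both endogenous libraries, which were chosen without the tagged libraries, a mutant cluster was listed at 3 and 1 and a tagged wild type cluster at 12 and 10. Of all 8062 such loci, 11.9% and 11.9% were listed in the mutant and 87.9% and 85.3% in the tagged wild type. The median log2 fold of the listed clusters was 1.11 and 0.11 in the mutant and 1.67 and 1.84 in the tagged wild type. The groups did not overlap, and the difference as tagged wild type minus mutant was 1.15, with means of 0.61 ± 0.71 and 1.75 ± 0.12 (SD, n = 2; exact two-sided permutation p = 0.33). With loci not listed set to 0 it was 1.67, with both mutant medians at 0. The medians of listed clusters cover different loci, and that of mutant library 2 is the HNRNPU-AS1 value alone. Mutant library 1 had 0.61 at HNRNPU-AS1, 1.11 at HNRNPA2B1 and 1.55 at HNRNPD. Tagged wild type library 1 had 3.78, 1.76 and 1.57 at the same loci. Of the 12 loci 0 were enriched in the mutant, where 0.149% and 0.186% of all such loci were, and 1 was enriched in each tagged wild type library, the one in HNRNPU-AS1, where 30.4% and 27.4% were. At SRSF12, the single SRSF locus of this kind, the mutant was not listed, and no difference of medians could be formed.

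A fit across all regions was possible only where all 4 libraries listed a cluster. Between mutant and tagged wild type this left 5481 merged regions, 27 of them in member genes (20 hnRNP and 7 SRSF), tested with limma and Benjamini-Hochberg adjustment over all regions. The mutant was lower than the tagged wild type in 36 regions (0.657%) and higher in 1 (0.0182%). The count of lower regions depended on the libraries and the scale. It was 4 without either mutant library, 68 without tagged wild type library 1, 57 without library 2, 71 with each library centred on its median, and 69 among the 1253 regions with a −log10 p of at least 3. Among members 1 region passed, at HNRNPU-AS1, chr1:245013113-245014064, with 0.56 and 0.11 in the mutant and 3.78 and 3.62 in the tagged wild type. Its difference, tagged wild type minus mutant, was 3.37 ± 0.49 (SE; limma adjusted p = 0.0271). The values compared came from clusters that do not overlap, chr1:245013122-245013173 and chr1:245013639-245013772 in the mutant and chr1:245013495-245013626 and chr1:245013493-245013598 in the tagged wild type. Mutant library 1 also had a cluster of 22 bases inside the tagged wild type stretch, at 0.61. The call was lost without mutant library 1 (3.60, limma adjusted p = 0.105) and without mutant library 2 (3.15, limma adjusted p = 0.137). In each such fit the group with 1 library is assumed to vary like the other group. The median difference was −0.12 over hnRNP regions and −0.41 over SRSF regions, against −0.26 over all regions. After centring the median was 0.07 over all members and 0.01 over all regions, so its sign depends on the scale. The region furthest in the other direction was an HNRNPH3 intron, chr10:70095921-70096041, with 1.57 and 2.91 in the mutant and 0.08 and 0.83 in the tagged wild type, which did not pass (limma adjusted p = 0.305).

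In coding exons of member genes the mutant was listed above input more often than the tagged wild type, and in their introns less often. Of 138 hnRNP coding-exon loci, the mutant was listed at 37 and 81 (26.8% and 58.7%) and the tagged wild type at 10 and 15 (7.25% and 10.9%). Over all coding-exon loci the mutant was listed at 11.5% and 20.7% and the tagged wild type at 7.97% and 9.18%. SRSF coding exons went the same way, with 6 and 8 of 17 loci in the mutant and 3 and 3 in the tagged wild type. At intron and splice site loci the order turned. For hnRNP genes 14.6% and 12.7% of these were listed in the mutant and 25.5% and 27.1% in the tagged wild type, and for SRSF genes 18.3% and 13.1% in the mutant and 28.8% and 22.2% in the tagged wild type. All intron and splice site loci had the same order, at 8.46% and 9.49% in the mutant and 18.4% and 19.7% in the tagged wild type. None of these pairs of groups overlapped. Each hnRNP and SRSF pair gave the smallest exact two-sided permutation p of 0.33 (n = 2 each), and the pairs over all loci were not tested.

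The coding-exon signal was low wherever it occurred. The median log2 fold of the listed hnRNP clusters there was 0.30 and 0.66 in the mutant and 0.21 and 0.31 in the tagged wild type, and the highest was 1.47 and 1.79 in the mutant and 0.97 and 1.14 in the tagged wild type. The mutant libraries differed by a factor of more than 2 in how many of these loci they listed, so the size of the excess is uncertain. In the 3′ UTR the groups overlapped, with 31 and 13 of 99 hnRNP loci listed in the mutant and 29 and 37 in the tagged wild type (exact two-sided permutation p = 0.667). In percent these were 31.3% and 13.1% in the mutant and 29.3% and 37.4% in the tagged wild type, where over all 3′ UTR loci the mutant was listed at 17.7% and 15% and the tagged wild type at 25.8% and 23.7%.

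**Figure D4:**
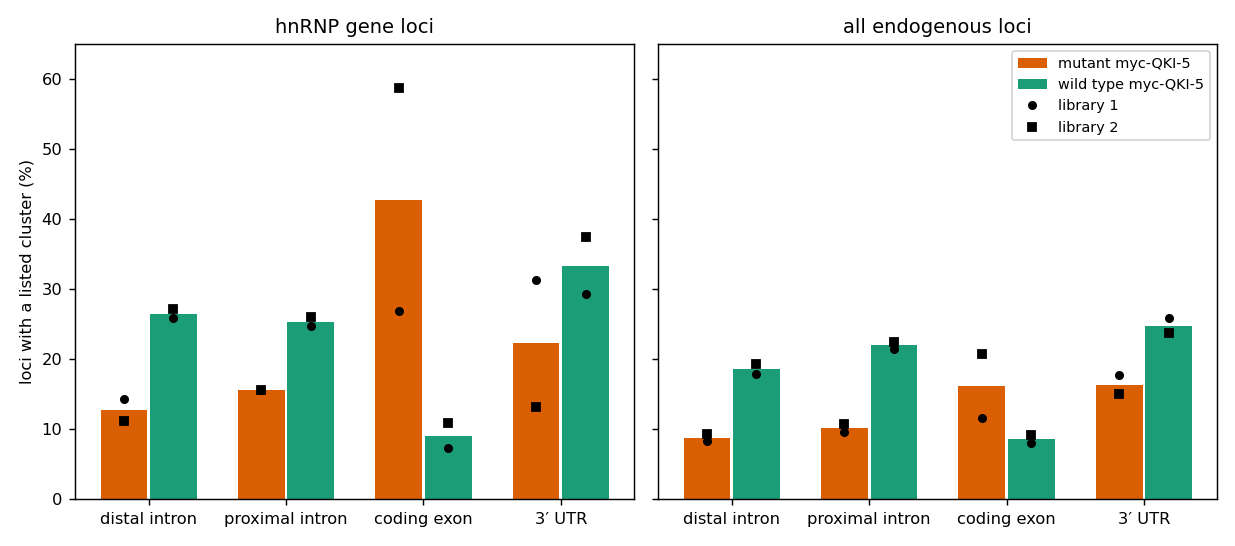
Share of loci (percent) with a listed cluster, by annotated class, in the mutant and the tagged wild type, for hnRNP genes (left) and all endogenous loci (right). Bars are means of the 2 libraries, circles library 1 and squares library 2. In hnRNP coding exons the mutant was listed at 26.8% and 58.7% and the tagged wild type at 7.25% and 10.9%, the opposite order to introns.

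Tagged wild type and endogenous QKI were compared at 29835 regions listed above input in all 4 libraries, 61 of them in member genes (42 hnRNP and 19 SRSF). Over all regions the tagged wild type was lower in 2266 (7.6%) and higher in 162 (0.543%), and the median difference, tagged wild type minus endogenous, was −0.61. Among members 7 regions passed, 6 hnRNP and 1 SRSF, all lower in the tagged wild type. With 1 library left out, the lower calls over all regions were 497 without tagged wild type library 2, 979 without library 1, 1373 without endogenous library 1 and 1501 without endogenous library 2, and the member calls 4, 1, 3 and 3. With each library centred on its own median the calls over all regions became 405 lower and 407 higher (1.36% each), and 3 member regions passed, HNRNPA2B1 and HNRNPA1 lower and HNRNPUL1 higher in the tagged wild type. The member medians were −0.55 for hnRNP and −0.25 for SRSF regions, both closer to 0 than the median of all regions. Their sign depends on the scale. Over both families together the median was −0.46, with 23 of 61 regions above 0, and after centring it was 0.23, with 39 above 0, against 0.07 over all regions.

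The largest difference was at the HNRNPA2B1 3′ UTR, where the tagged wild type averaged 1.90 and endogenous QKI 5.77, a difference of −3.87 ± 0.65 (SE; limma adjusted p = 0.00686). It passed under every alternative tried. The HNRNPA1 3′ UTR followed with 1.66 in the tagged wild type and 4.81 for endogenous QKI (−3.15, limma adjusted p = 0.0125), which was lost only without tagged wild type library 1, at a limma adjusted p of 0.0532. Among the other hnRNP regions the largest were HNRNPA1L2 (−2.87, limma adjusted p = 0.0269), HNRNPU-AS1 (−2.46, limma adjusted p = 0.0298) and HNRNPD (−2.36, limma adjusted p = 0.0446). These 3 did not pass after centring. With 1 library left out, HNRNPU-AS1 passed in no case (limma adjusted p of 0.056 to 0.113) while its difference stayed between −2.62 and −2.31, HNRNPA1L2 did not without tagged wild type library 1 (0.177) or endogenous library 1 (0.0704), and HNRNPD did only without endogenous library 1 (0.0333, otherwise up to 0.216). The difference ranged between −3.86 and −1.89 for HNRNPA1L2 and between −2.93 and −1.79 for HNRNPD. At HNRNPU-AS1 the tagged wild type was high itself, at 3.70 against 6.17 for endogenous QKI.

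A pair of called regions had endogenous folds below the threshold of 3. SRSF6, a regulator of alternative exons, had at the 3′ splice site region chr20:42088269-42088440 (plus strand) 0.20 and 0.25 in the tagged wild type and 2.65 and 2.80 for endogenous QKI (−2.51 ± 0.64, limma adjusted p = 0.0274). A distal intron of HNRNPH1, chr5:179047045-179047332, had 0.27 and 0.32 in the tagged wild type and 2.59 and 2.41 for endogenous QKI (−2.20 ± 0.65, limma adjusted p = 0.0449). In both the 2 libraries of a group were close to each other and far from the other group. Neither passed after centring (limma adjusted p of 0.126 for SRSF6 and 0.2 for HNRNPH1) or with any 1 library left out, where the difference was −2.58 to −2.43 for SRSF6 and −2.29 to −2.11 for HNRNPH1. HNRNPDL, at −2.16, did not pass (limma adjusted p = 0.0537).

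**Figure D5:**
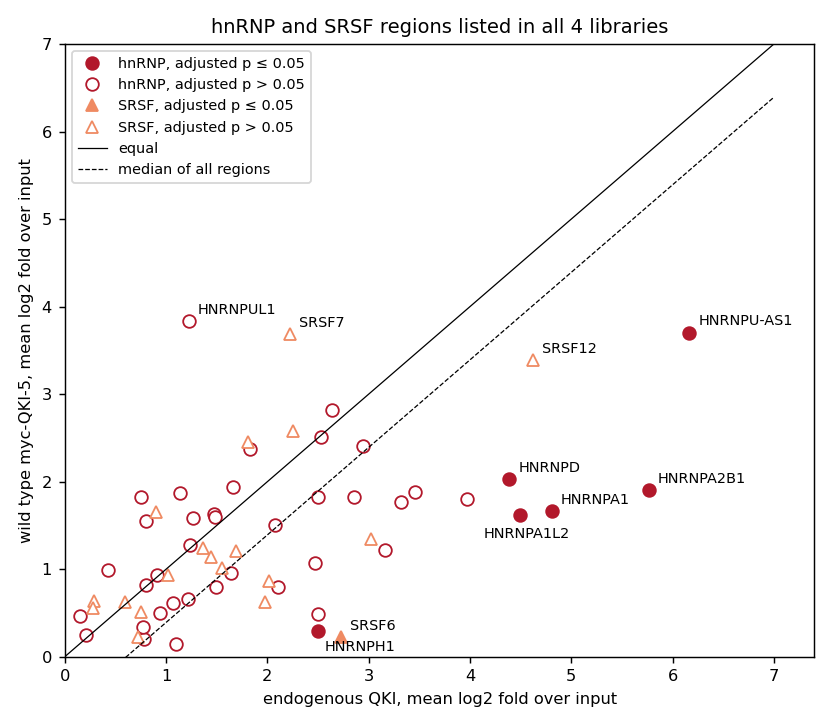
Mean log2 fold over input of the tagged wild type (vertical) against endogenous QKI (horizontal) at the 61 hnRNP and SRSF regions listed above input in all 4 libraries. Filled points have a limma adjusted p of at most 0.05, the solid line marks equal values and the dashed line the median difference of all regions, −0.61. The 7 filled points all lie below both lines, and HNRNPUL1 and SRSF7 lie above.

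Some members were enriched with tagged wild type QKI and not with endogenous QKI. In the 3′ UTR of HNRNPUL1, a relative of HNRNPU, at chr19:41813436-41813503, the tagged wild type had 5.31 and 2.37 and endogenous QKI 1.17 and 1.28. Its limma difference, tagged wild type minus endogenous, was 2.61 ± 0.82, which did not pass (limma adjusted p = 0.0569). It did pass with each library centred on its median, at 3.29 (limma adjusted p = 0.0333), and without tagged wild type library 2, at 4.08 (limma adjusted p = 0.0307). Without tagged wild type library 1 it was 1.14 (limma adjusted p = 0.422). The 3′ UTR of SRSF7, which binds GA-rich exonic sequences and takes part in messenger export, had at chr2:38971893-38972001 values of 2.36 and 5.01 in the tagged wild type and 2.20 and 2.24 for endogenous QKI (difference 1.46, limma adjusted p = 0.25). At both loci the 2 tagged wild type libraries were more than 2 log2 units apart, so the difference rests largely on 1 library, and the mutant was not listed.

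SRSF10 had such a locus at a 5′ splice site, chr1:24297891-24298020. The mutant was not listed there, the tagged wild type had 2.39 and 4.80, and endogenous QKI had 0.13 and −0.27. This locus was outside the fit because an endogenous value was below input. Library 2 of the tagged wild type alone passed at SRSF3, the smallest SR protein, with 1.60 and 3.57 at chr6:36566020-36566060, against 1.16 in endogenous library 1 only. Library 2 alone also passed at HNRNPH2, chrX:100664557-100664569, with 1.73 and 3.76 in the tagged wild type, against 0.26 in endogenous library 1. HNRNPH3 had 2 such loci, chr10:70097254-70097282 with 3.14 in tagged wild type library 2 only and 0.18 in endogenous library 1, and chr10:70097989-70098272 with 2.32 and 3.31 in the tagged wild type and 2.99 and 2.29 for endogenous QKI. None of these loci passed in both tagged wild type libraries.

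The authors' deposited tables of reproducible peaks, 1 for each pair of libraries, gave a similar set. Only peaks that overlapped a member locus of the endogenous libraries were counted, so peaks elsewhere in these genes are left out. Members held 0 of 55 peaks in the mutant table, 7 of 3671 in the tagged wild type table (4 hnRNP and 3 SRSF) and 28 of 12409 in the endogenous table (26 hnRNP and 2 SRSF). In the authors' deposited table for the tagged wild type the members' peaks were in HNRNPU-AS1, HNRNPUL1, HNRNPA1, SRSF7, SRSF10 and SRSF12. SRSF12 and HNRNPU-AS1 held a peak at the same locus in both the tagged wild type and the endogenous table of the authors' deposited tables, with log2 folds of 3.41 and 4.68 for SRSF12. HNRNPA1 was also in both of the authors' deposited tables, but at different 3′ UTR loci, as above.

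Other genes of splice site choice were counted the same way. Of 16 genes for splice site and branch point recognition, 6 had a locus enriched in both endogenous libraries, including U2AF2, which binds the polypyrimidine tract, and RBM17, with 2 each. Of 16 SR kinases and SR-related proteins 5 did, with ACIN1 and DYRK1A at 4 loci each, the SR protein kinase SRPK1 at 3 and SON at 2. Of 17 further hnRNP-associated or exon-silencing genes with a cluster 9 did, led by MATR3 with 7 and by PTBP2 and FUBP1 with 2 each. In loci these were 8 of 497, 14 of 856 and 17 of 843, or 1.61%, 1.64% and 2.02%, near the 1.63% of all loci. The mutant had 0 enriched clusters in each of the 3 lists. Over all mutant clusters lying at an endogenous cluster 0.136% and 0.452% were enriched, so a count of 0 does not set these lists apart. The highest values were 7.82 and 6.98 in MATR3, a nuclear matrix protein that binds RNA, and 7.56 and 7.15 in SRPK1. Both genes were above any hnRNP or SRSF cluster of the same library.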

How the data were processed

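The 6 eCLIP immunoprecipitation libraries, 2 per group by their titles, were analysed. Their 6 inputs were used only as part of the authors' values. The submitters' processing notes name STAR, SAMtools, cutadapt and UMI-tools, and the build hg19. Versions, peak caller and read depth: not given in the sources used here. The log2 fold of a cluster over its size-matched input is the authors' deposited value. So is its −log10 p, deposited with a cap of 400. The deposited browser score of the tagged libraries was not used. Gene names and classes came from the endogenous lists.

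Member clusters were joined into loci by gene and strand (overlap of at least 1 base). A cluster has the annotated class with the most bases, and a locus the class of its endogenous cluster with the highest −log10 p. For its values a locus takes, per library, the cluster of highest −log10 p. It is enriched where any cluster in it had a log2 fold and a −log10 p of at least 3. Tagged clusters count through same-strand overlap. Regions for limma 3.58.1 (R 4.3.3) were merged over the libraries compared, adjoining clusters included, and fitted with lmFit and eBayes without covariates. Single values were compared with exact permutation tests over libraries (scipy 1.17.1). The limma script was tested on simulated data.

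Members, gene lists and tests were chosen with earlier results of these data known. Named were genes with a locus enriched in both endogenous libraries, called regions, loci enriched only with tagged wild type, and per family the gene with most clusters and none enriched in the endogenous libraries. SRSF2, HNRNPA0, HNRNPDL in the fit and the HNRNPH3 intron were added after their values were seen, as were genes passing in 1 endogenous library. Same-numbered tagged wild type libraries did not deviate together with the mutant (r = −0.038) or endogenous ones (r = 0.009), so numbers were not used as pairs. Alternatives covered thresholds, naming, overlap, missing clusters, centring, filters, robust moderation, a replicate block and each library left out.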

Additional observations from a re-analysis of the deposited data

How the results depend on the processing

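Thresholds set the counts. With a log2 fold of at least 2, the excess of enriched clusters in the tagged wild type over the mutant was 13.5 for hnRNP and 6.5 for SRSF genes, and loci enriched in both endogenous libraries numbered 21 and 5. With a fold of at least 4, the hnRNP excess was 1 and the hnRNP loci 5. With 1 library left out, the hnRNP excess was 4 to 5, the SRSF excess 1 to 3 and the hnRNP median difference 0.64 to 1.65. That median difference kept its direction in all 12 alternatives. The replicate block returns the main value by its arithmetic, and missing clusters set to 0 made both mutant medians 0. Neither of these could turn the direction. Without 1 endogenous library, loci enriched in the remaining library were counted, 14 to 16 for hnRNP and 2 to 3 for SRSF genes. Such counts cannot fall below those for both libraries. For SRSF genes a median difference could be formed only with missing clusters set to 0, where it was 3.39. It rests on 1 locus, SRSF12, at which the mutant was not listed. The 3.39 is thus the mean of the tagged wild type values there and holds no mutant measurement.

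The fit of tagged wild type against mutant called 72 regions after centring, 74 with regions of −log10 p of at least 3 only, and 4 to 73 with a library left out, of which 0 to 1 were members (0 without either mutant library). The fit against endogenous QKI called 812 regions after centring, and 520 to 1607 with a library left out. Its member calls were 3 after centring, 11 with that filter (HNRNPUL1 among them) and 1 to 4 with a library left out, fewest without tagged wild type library 1. With the replicate block it called 4181 regions, 11 in members with HNRNPUL1 and HNRNPDL added, although the numbers do not pair the libraries. In the fit against the mutant the block changed no member call. No named region or count changed direction, but the median over all members did after centring, to 0.23 against −0.46 in the fit against endogenous QKI and to 0.07 against −0.20 in the fit against the mutant. Fits without 1 library assume that the lone library of a group varies like the other group. Causes of these shifts were not tested. Unknown read depth limits low folds.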
